A study of Drosophila melanogaster with 8 samples.

Results

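The genes described here encode the machinery that removes the cap of an mRNA and degrades the message from its 5′ end. They are 10 of the 13656 genes in the authors' table: me31B, tral, Patr-1, Edc3, Ge-1, Dcp1, Dcp2, pcm, twin and pAbp. They were chosen by name, with earlier results of these data known. Dcp1 and Dcp2 are spelled DCP1 and DCP2 in the table and were matched by symbol regardless of letter case. The caspase gene Dcp-1 is a different gene and was not taken. The 10 genes have 28 listed transcripts of 26309.

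RNA was sequenced from heads of 5-day-old female Drosophila melanogaster of 4 genotypes, in each of which the driver Elav, active in neurons, switched on 1 transgene. Elav>PA36 makes a proline-alanine dipeptide repeat of 36 units and is the control in the labels. Elav>PR36 makes a proline-arginine repeat, Elav>(G4C2)36 carries the GGGGCC hexanucleotide repeat linked to C9orf72 disease, and Elav>UPF1 RNAi targets the helicase of nonsense-mediated mRNA decay (NMD). Whole heads were used, so cells outside the reach of the driver contribute RNA, and fewer cells of a type cannot be told apart from less RNA per cell. The labels give 2 replicates and 40 heads in total per genotype. They do not say that replicates came from separate cultures, so p-values measure only the spread between these libraries, which may be technical.

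Bulk decay of an mRNA begins with shortening of its poly(A) tail, to which pAbp binds, by the CCR4-NOT complex, in which twin and Pop2 are nucleases. The LSm proteins, Patr-1 and the helicase me31B then gather on the message with tral, Edc3 and Ge-1, translation is repressed, and Dcp2 with its cofactor Dcp1 cuts the cap. The exonuclease pcm, the fly counterpart of XRN1, degrades the uncapped body. In flies NMD uses an endonucleolytic cut, and pcm clears the downstream fragment. These proteins collect in P-bodies and in neuronal RNA granules, where they also hold messages silent at synapses.

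The abundant pAbp and the scarce pcm bounded a set whose order of levels changed little between libraries. Of the 10 genes, 0 passed the test (limma, Benjamini-Hochberg adjusted p under 0.05) in any of 6 comparisons between genotypes. Among their transcripts, 1 of the 9 transcripts of tral was called lower in the single UPF1 RNAi library than in each other genotype. That call was lost with only the groups compared, with a replicate block and, with 1 exception, when any single library was left out. Over all transcripts, fewer were called in each of these settings too, so the loss was not particular to this transcript. In PA36 replicate 1, 8 of the 10 genes had their lowest value of 7 libraries.

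Values are TPM, the abundance of a transcript relative to all transcripts of its library, corrected for length and summed here over the listed transcripts of a gene. Differences are log2 fold changes of TPM + 1. The header names 7 libraries and the lines hold 1 value column more than it names. Names were read from the left, so all assignments of values to libraries rest on that reading, and UPF1 RNAi is represented by 1 library. Listed values summed to 712972 to 877933 TPM per library, and TPM keep no read number, so the depth is unknown. The neuronal markers elav, brp, nSyb, Syt1, Syx1A and futsch were listed in the heads at a summed 901 to 1302 TPM, and the photoreceptor opsin ninaE at 21034 to 30990 TPM. Among these markers, brp was at 0.134 TPM in PR36 replicate 1 and Syx1A at 0.344 TPM in PA36 replicate 1. The targeted gene Upf1 was at 11.3 TPM in the UPF1 RNAi library, below the 16.0 to 19.6 TPM of PR36 and (G4C2)36 and between the 10.3 and 19.1 TPM of PA36. Its log2 difference of UPF1 RNAi from PA36 was -0.29 (SE 0.37, limma adjusted p = 0.96), and PR36 and (G4C2)36 exceeded UPF1 RNAi by 0.70 and 0.55 (SE 0.37 each, adjusted p = 1.00 and 0.98), none of which passed. The 10 heat shock genes checked summed to 5247 TPM in PA36 replicate 1 and 6722 TPM in PR36 replicate 1, against 86.6 to 498 TPM in the 5 other libraries.

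Within the set, pAbp was the most abundant message, with a median of 580.0 TPM over the 7 libraries, above 97.4% to 98.3% of the 9287 genes tested. The other genes lay between 88.95 TPM for tral and 9.14 TPM for pcm. In between came me31B at 76.7, Dcp2 at 50.9, twin at 31.5, Dcp1 at 24.4, Ge-1 at 20.2, Patr-1 at 16.5 and Edc3 at 15.9 TPM, all as medians. The catalytic subunit Dcp2 was thus more abundant than its cofactor Dcp1, and the exonuclease pcm was the scarcest. This order held in all 7 libraries between neighbours, except that tral exceeded me31B in 6 of 7 and Patr-1 exceeded Edc3 in 4 of 7. The ranges over libraries did not overlap between pAbp and tral, between me31B and Dcp2, or between Edc3 and pcm, and overlapped for the 6 other neighbouring pairs.

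**Figure D1:**
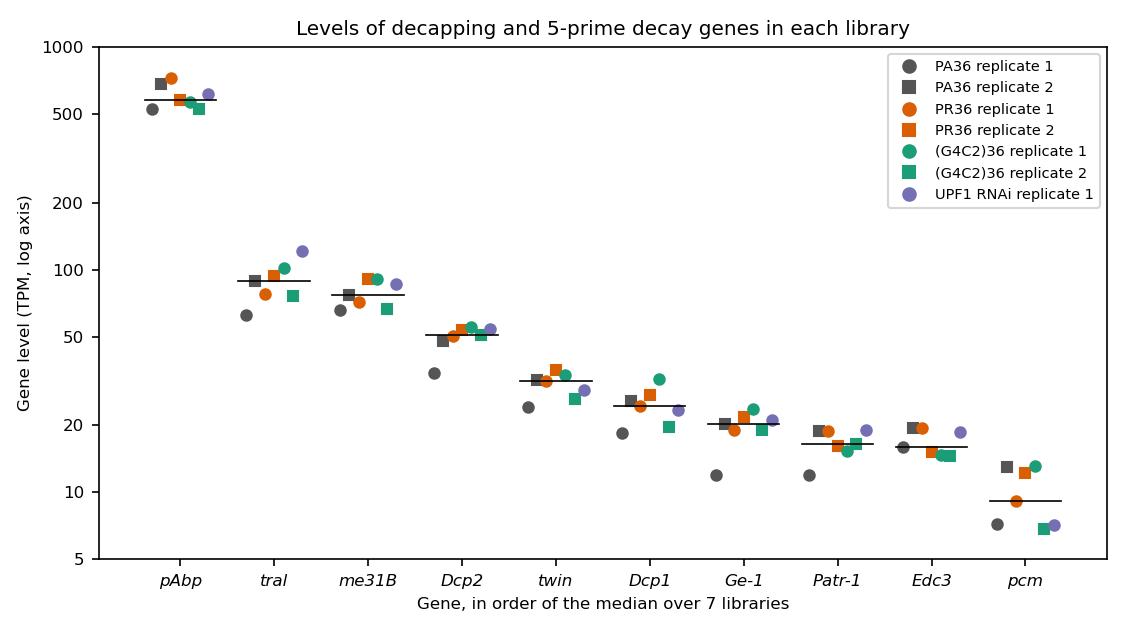
TPM of each gene (log axis) in each of 7 libraries, coloured by genotype with circles for replicate 1 and squares for replicate 2, and a bar at the median over libraries. pAbp lies at 525 to 725 TPM and pcm at 6.80 to 13.1 TPM, and the grey circle of PA36 replicate 1 is the lowest point for 8 of the 10 genes.

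The helicase me31B, the fly DDX6, which represses translation and activates decapping, lies on 2L at 10239341 to 10242172 (BDGP6). It stood at 65.7 and 76.7 TPM in the PA36 pair, 71.8 and 91.0 TPM in the PR36 pair, 91.0 and 66.5 TPM in the (G4C2)36 pair and 85.8 TPM under UPF1 RNAi. All groups with 2 libraries overlapped, and the (G4C2)36 pair spanned nearly the whole range. On the log2 scale me31B differed from PA36 by 0.18 in PR36 (SE 0.24, limma adjusted p = 0.996), by 0.13 in (G4C2)36 (SE 0.24, adjusted p = 0.95) and by 0.27 in UPF1 RNAi (SE 0.30, adjusted p = 0.96).

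Its partner tral, an LSm14-family protein of the same ribonucleoprotein particles, lies on 3L at 12515059 to 12520954. It was listed at 62.3 and 88.95 TPM in the PA36 pair, 77.8 and 93.4 TPM in the PR36 pair, and 101 and 76.2 TPM in the (G4C2)36 pair. The 122 TPM of UPF1 RNAi was above all 6 other libraries. That put tral 0.70 above PA36 on the log2 scale (SE 0.32, 95% interval -0.05 to 1.45, limma adjusted p = 0.82), the largest of the 10 genes in these comparisons, and it did not pass. In PR36 and (G4C2)36 the log2 fold changes of tral were 0.19 and 0.24 (SE 0.26 each, adjusted p = 0.996 and 0.92).

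Patr-1, the scaffold that links deadenylated messages to the decapping enzyme, lies on 3R at 17043564 to 17048421. It was listed at 12.0 and 18.8 TPM in the PA36 pair, 18.9 and 16.2 TPM in the PR36 pair, 15.3 and 16.5 TPM in the (G4C2)36 pair and 19.1 TPM under UPF1 RNAi. PA36 replicate 1 was below the rest, and PA36 replicate 2 was within their range. Edc3, an enhancer of decapping that binds both Dcp1 and me31B (3L, 17525333 to 17529861), was listed at 15.9 and 19.3 TPM in the PA36 pair, 19.4 and 15.1 TPM in the PR36 pair and 18.7 TPM under UPF1 RNAi. Its 14.6 and 14.5 TPM in the (G4C2)36 pair lay below both PA36 libraries, a log2 difference of -0.25 that did not pass (SE 0.23, limma adjusted p = 0.90). Ge-1, the scaffold known as EDC4 in mammals (2L, 11095150 to 11100888), was listed at 12.0 and 20.2 TPM in the PA36 pair. It reached 19.0 and 21.9 TPM in the PR36 pair, 23.6 and 19.0 TPM in the (G4C2)36 pair and 21.2 TPM under UPF1 RNAi. PA36 replicate 1 stood apart here too, so that the log2 fold changes of 0.36, 0.42 and 0.42 rested on a pair with an SD of 5.83 TPM around 16.1 TPM (n = 2). None passed, with limma adjusted p = 0.996, 0.87 and 0.96.

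Dcp2, the hydrolase that cuts the cap (3L, 15818734 to 15826423), was listed at 34.4 and 47.6 TPM in the PA36 pair. It was at 50.3 and 53.3 TPM in the PR36 pair, 55.4 and 50.9 TPM in the (G4C2)36 pair and 54.2 TPM under UPF1 RNAi, so the 5 libraries of the other genotypes were all above both PA36 libraries. The log2 fold changes were 0.35 (SE 0.23, limma adjusted p = 0.996), 0.38 (SE 0.23, adjusted p = 0.85) and 0.41 (SE 0.28, adjusted p = 0.96). Those 3 comparisons share the PA36 libraries. Taken singly, 27%, 24.2% and 45% of all genes tested likewise lay above both PA36 libraries. The share that did so in all 3 was not computed. Dcp1, the activating cofactor (2R, 23888764 to 23890276), was listed at 18.5 and 25.7 TPM in the PA36 pair, 24.4 and 27.3 TPM in the PR36 pair, 32.3 and 19.7 TPM in the (G4C2)36 pair and 23.5 TPM under UPF1 RNAi. All groups overlapped with PA36, with log2 fold changes of 0.23, 0.20 and 0.10 (limma adjusted p = 0.996, 0.93 and 0.99). Dcp1 shares 14 exonic bases with CG5597 on the opposite strand.

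The exonuclease pcm (X, 19485759 to 19492011) differed most between replicates, in each of the 3 genotypes with 2 libraries. It was listed at 7.20 and 12.9 TPM in the PA36 pair, 9.14 and 12.2 TPM in the PR36 pair, and 13.1 and 6.80 TPM in the (G4C2)36 pair. The (G4C2)36 pair held both the highest and the lowest value of the 7 libraries. UPF1 RNAi, at 7.09 TPM, lay just under PA36 replicate 1. On the log2 scale it was at -0.40 relative to PA36 (SE 0.48, limma adjusted p = 0.96), with a 95% interval from -1.52 to 0.72.

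At the tail end of the message, the deadenylase subunit twin (3R, 24196893 to 24221965) was listed at 24.2 and 32.0 TPM in the PA36 pair, 31.5 and 35.3 TPM in the PR36 pair, 33.5 and 26.2 TPM in the (G4C2)36 pair and 28.7 TPM under UPF1 RNAi. All groups overlapped with PA36 or lay within its range. In the reference, 454 exonic bases of twin lie over cav on the opposite strand, and whether counting used strand is not given in the sources used here, so reads of both genes cannot be told apart there. The poly(A)-binding protein gene pAbp (2R, 18140078 to 18147191) was listed at 525 and 681 TPM in the PA36 pair, 725 and 580.0 TPM in the PR36 pair, 566 and 528 TPM in the (G4C2)36 pair and 612 TPM under UPF1 RNAi. On the log2 scale pAbp stood at 0.12, -0.13 and 0.03 relative to PA36 (SE 0.22, 0.22 and 0.27, limma adjusted p = 0.996, 0.94 and 1.00). Both PR36 libraries of pAbp lay above both (G4C2)36 libraries, as did those of Edc3, and the differences of 0.25 and 0.22 on the log2 scale did not pass (limma adjusted p = 1.00 each).

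Differences between genotypes were tested with limma on log2(TPM + 1) across the 9287 genes averaging 1 TPM or more, so that the 10 genes were judged beside the rest. Against PA36, 0 of 10 were called in PR36, where 0.194% of genes tested were, 0 of 10 in (G4C2)36, where 0.388% were, and 0 of 10 in UPF1 RNAi, where 0.625% were. Between the other genotypes 0 of 10 were called in PR36 against (G4C2)36 (0.237% of all genes), PR36 against UPF1 RNAi (0.431%) and (G4C2)36 against UPF1 RNAi (0.581%). At limma's unadjusted p under 0.05 the count was also 0 of 10 in each, beside 315 to 696 of all 9287 genes. Nearest came tral in UPF1 RNAi against PA36. With so few genes called anywhere, 0 of 10 is near the background. Against PA36, libraries did not overlap for Dcp2 in PR36 (1 of 10 higher, against 27% of all genes, and 0 lower against 6.72%), for Dcp2 and Edc3 in (G4C2)36 (1 higher against 24.2%, and 1 lower against 8.21%), and for 6 genes in the single UPF1 RNAi library. Of those 6, me31B, tral, Patr-1, Ge-1 and Dcp2 were higher (45% of all genes were) and pcm was lower (25.9% were). PR36 lay above (G4C2)36 for Edc3 and pAbp, 2 of 10 against 13.1% of all genes, and below it for 0 of 10 against 13.3%. PR36 lay above UPF1 RNAi for Dcp1, pcm and twin, 3 of 10 against 37.4%, and below it for tral, Patr-1 and Dcp2, 3 of 10 against 31.3%. (G4C2)36 lay below UPF1 RNAi for tral, Patr-1, Edc3 and pAbp, 4 of 10 against 25.3%, and above it for 0 of 10 against 30.7%. With groups of 2 and 1, such separations were common over all genes.

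Taking the median over the 10 genes, PR36 differed from PA36 by 0.20 on the log2 scale, (G4C2)36 by 0.11 and UPF1 RNAi by 0.19, beside 0.13, 0.13 and 0.10 over all genes tested. Of the 10 genes, 9, 7 and 9 lay above 0, but only 7, 4 and 5 lay above the median of all genes. Median-of-ratios rescaling, which moved the median of all genes to 0.01, 0.01 and 0.02, left the 10 genes at 0.08, -0.02 and 0.09, with 7, 5 and 6 above 0. How large a change the data leave possible is given by the 95% intervals. They extended from -0.80 to 1.05 over the 10 genes in PR36, from -0.94 to 1.10 in (G4C2)36 and from -1.52 to 1.45 in UPF1 RNAi. Intervals reached beyond a doubling or halving (1 on the log2 scale) for 2, 1 and 5 of the 10 genes.

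**Figure D2:**
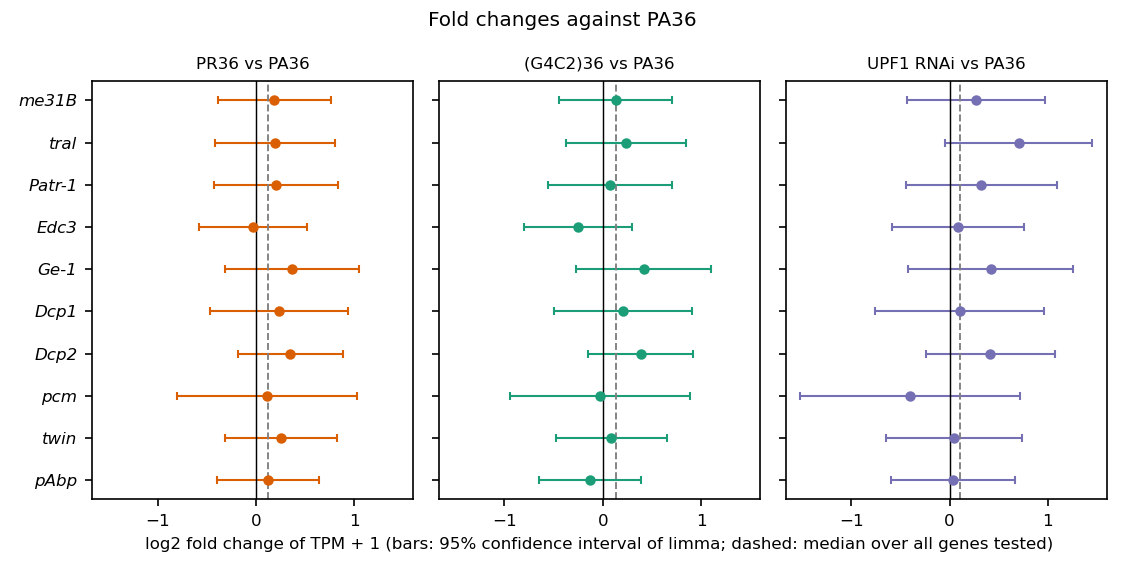
Log2 fold change of TPM + 1 against PA36 for each gene (points) with limma's 95% confidence interval (bars), in PR36, (G4C2)36 and UPF1 RNAi, with the median over all 9287 genes tested as a dashed line. Every interval includes 0, and the tral interval in UPF1 RNAi comes nearest to leaving it, at -0.05 to 1.45.

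PA36 replicate 1 stood low for these genes. It held the lowest of 7 values for 8 of the 10, all but Edc3 and pcm, whereas it was lowest for 31% of all genes tested. This was not particular to the 10 genes. Among related decay genes, Not1, Not3, PAN2, pum, bel, Fmr1 and eIF4G1 were also lowest there, while gw, eRF1 and Rrp46 were not. The median deviation of PA36 replicate 1 from the gene means was -0.36 on the log2 scale over the 10 genes and -0.14 over all genes. All 10 were higher in PA36 replicate 2 than in replicate 1, by a median of 0.46, against 67.8% of all genes and a median of 0.15. In PR36, 7 of 10 were higher in replicate 2 (median 0.16, beside 0.15 for all genes), and in (G4C2)36, 1 of 10 was (median -0.32, beside -0.34). Without PA36 replicate 1, the median over the 10 genes moved to -0.03 for PR36, -0.06 for (G4C2)36 and -0.02 for UPF1 RNAi, and 5, 3 and 5 of 10 lay above 0. Without PA36 replicate 2 the medians were 0.46, 0.37 and 0.36. Heat shock genes were high in PA36 replicate 1, and its 6 neuronal markers summed to 901 TPM against 1004 to 1302 TPM elsewhere. Of these markers elav, Syt1, Syx1A and futsch were lowest in PA36 replicate 1, with Syx1A at 0.344 TPM against 40.6 to 98.4 TPM. nSyb was lowest in UPF1 RNAi (420 TPM against 609 TPM in PA36 replicate 1) and brp in PR36 replicate 1. The 5 glial markers summed to 909 TPM in PA36 replicate 1 and 972 to 1492 TPM elsewhere. Of these, Gs2 and moody were lowest there, and repo, Eaat1 and alrm in other libraries. The 6 fat body and yolk markers summed to 76534 TPM in PA36 replicate 1, 38959 TPM in replicate 2 and 49207 to 129316 TPM elsewhere. PR36 replicate 1, in which heat shock genes summed higher still, held the lowest value for 0 of the 10 genes. The part of heat shock or of the content of neurons and other cell types in these levels was not tested.

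**Figure D3:**
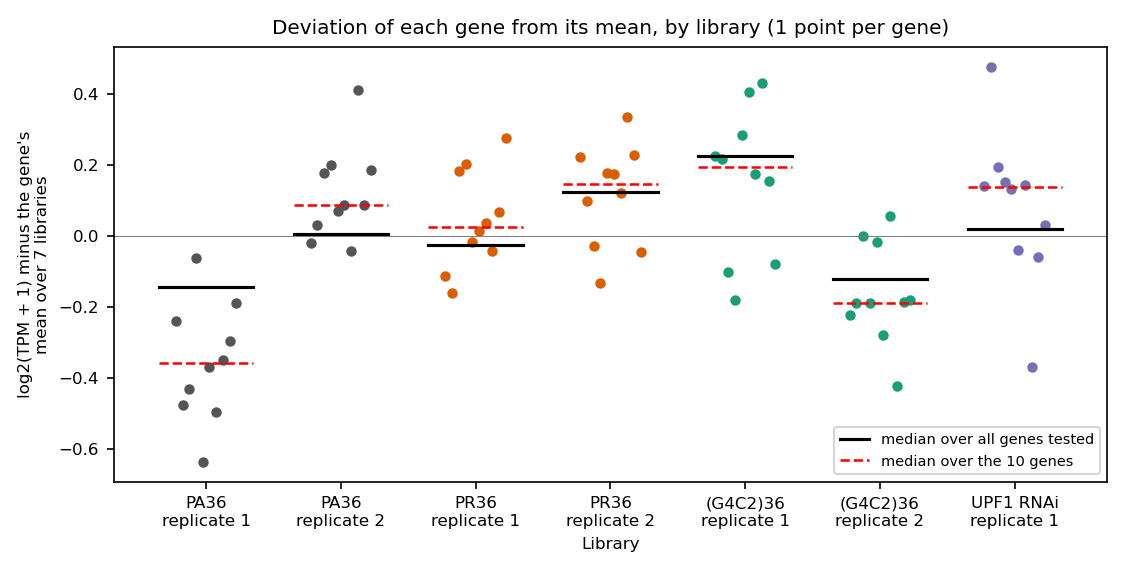
Deviation of log2(TPM + 1) from the gene's mean over 7 libraries for the 10 genes (points) in each library, with their median (red dashed) and the median over all genes tested (black). In PA36 replicate 1 the 10 genes have a median of -0.36 against -0.14 for all genes, while in the (G4C2)36 libraries both medians move together.

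Ratios between partners within a library do not depend on how that library was scaled. Dcp2 exceeded Dcp1 by a factor of 1.86 and 1.85 in PA36, 2.06 and 1.95 in PR36, 1.72 and 2.58 in (G4C2)36 and 2.31 in UPF1 RNAi. The (G4C2)36 pair again enclosed all other libraries. The ratio of tral to me31B was 0.948 to 1.16 in the 6 libraries of PA36, PR36 and (G4C2)36 and 1.42 in UPF1 RNAi. Ge-1 ran at 0.650 to 0.962 of Dcp1, and Patr-1 at 0.168 to 0.263 of me31B. Dcp2 ran at 3.69 to 7.65 times pcm, with the UPF1 RNAi library highest at 7.65 and (G4C2)36 replicate 2 next at 7.49. Edc3 ran at 0.463 and 0.406 of Dcp2 in PA36, 0.385 and 0.284 in PR36, 0.263 and 0.285 in (G4C2)36 and 0.344 in UPF1 RNAi, so PA36 lay above the rest. These ratios are descriptions and were not tested.

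A gene sum can hide transcripts that move apart, so the same model was fitted to the 15794 transcripts averaging 1 TPM or more. Of the 28 transcripts, 24 reached that mean. The 4 that did not were FBtr0332642 and FBtr0332641 of tral, FBtr0080232 of Ge-1 and FBtr0084571 of twin. In PR36 against PA36, 0 of 24 were called (0.317% of all transcripts were), and in (G4C2)36 against PA36 0 of 24 (0.298%). In UPF1 RNAi against PA36, 1 of 24 was called and lower (0.639% of all transcripts were called). In PR36 against UPF1 RNAi 1 of 24 was called (0.734%), and in (G4C2)36 against UPF1 RNAi 1 of 24 (0.772%), the same transcript in each. PR36 against (G4C2)36 gave 0 of 24 (0.443%). At limma's unadjusted p under 0.05 the comparisons with 0 calls held 0 of 24 transcripts for PR36 against PA36, where 649 of all 15794 were. They held 2 for (G4C2)36 against PA36 (1075 of all 15794) and 3 for PR36 against (G4C2)36 (884 of all 15794). With the single UPF1 RNAi library, 5 of 24 were under it against PA36 (1077 of all 15794). The count was 5 against PR36 (1074 of all) and 4 against (G4C2)36 (1273 of all). All of these were tral transcripts.

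That transcript was FBtr0332637 of tral. It stood at 15.2 and 24.1 TPM in the PA36 pair, 23.9 and 23.0 TPM in the PR36 pair, 31.6 and 22.9 TPM in the (G4C2)36 pair and 0.322 TPM under UPF1 RNAi. On the log2 scale it fell by 3.93 relative to PA36 (SE 0.38, 95% interval -4.89 to -2.96, limma adjusted p = 0.032), in 1 of 1 library. The UPF1 RNAi group is 1 library, assumed to vary like the others, and the call did not hold when any single library of PA36, PR36 or (G4C2)36 was left out (adjusted p = 0.074 to 0.11). Against PR36 it was lost in the same way (0.062 to 0.13), and against (G4C2)36 it was lost except without PA36 replicate 2 (0.047 there, otherwise 0.051 to 0.095). With a library left out, fewer of all transcripts were called in these comparisons too. The log2 difference of FBtr0332637 from PA36 stayed between -4.25 and -3.61. In the same library FBtr0332636 was at 9.17 TPM and FBtr0075959 at 8.14 TPM, while both were at 0.0175 to 0.0288 TPM in the 6 others (limma adjusted p = 0.080 and 0.088 against PA36). FBtr0332638 was at 48.7 TPM under UPF1 RNAi and at 15.4 to 31.5 TPM in the 6 others. Its log2 difference of 1.11 from PA36 did not pass (SE 0.27). In all, 1 of the 9 tral transcripts was under 1 TPM under UPF1 RNAi, against 4 to 6 in the other libraries. The tral transcript FBtr0332639 was at 3.12 and 2.44 TPM in the (G4C2)36 pair and 4.12 TPM under UPF1 RNAi, and at 0.018 to 0.0251 TPM in PA36 and PR36. Its log2 difference of 1.88 between (G4C2)36 and PA36 did not pass (SE 0.35, limma adjusted p = 0.25).

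A scarce transcript of Dcp2 was highest in (G4C2)36. FBtr0075539, which codes for a shorter protein (1692 coding bases against 2373 and 2376), was at 2.15 and 4.29 TPM in the (G4C2)36 pair. It was at 0.0633 and 0.122 TPM in the PA36 pair, 0.0836 and 1.97 TPM in the PR36 pair and 0.104 TPM under UPF1 RNAi. Both (G4C2)36 libraries were above all others, and the log2 difference of 1.90 from PA36 did not pass (SE 0.62, limma adjusted p = 0.64). The share of all transcripts placed in this way was not computed. FBtr0075539 has no exonic base of its own among the listed Dcp2 transcripts, so its level depends on how shared reads were assigned. Whether it has a splice junction of its own was not checked.

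The 9 tral transcripts differ by short coding stretches, with 1926 to 1971 coding bases, and by their 3′ end. In the reference FBtr0332635 and FBtr0332637 run 1259 bases farther and have 4155 and 4137 exonic bases, against 2866 to 2911 for the 7 others. No transcript of tral has an exonic base of its own that the other 8 all lack. Whether any of them has a splice junction of its own was not checked. Summed by 3′ end, the 2 long transcripts held 65.1% and 67.0% of tral in PA36, 64.7% and 60.6% in PR36, 78.3% and 68.4% in (G4C2)36 and 30.2% in UPF1 RNAi. In TPM, the long transcripts summed to 36.7 in UPF1 RNAi and to 40.5 to 79.3 elsewhere, and the 7 short ones to 84.9 in UPF1 RNAi and to 21.7 to 36.8 elsewhere. The higher gene sum of tral in UPF1 RNAi therefore lay in the short transcripts. This grouping was chosen after the values were seen and was not tested.

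**Figure D4:**
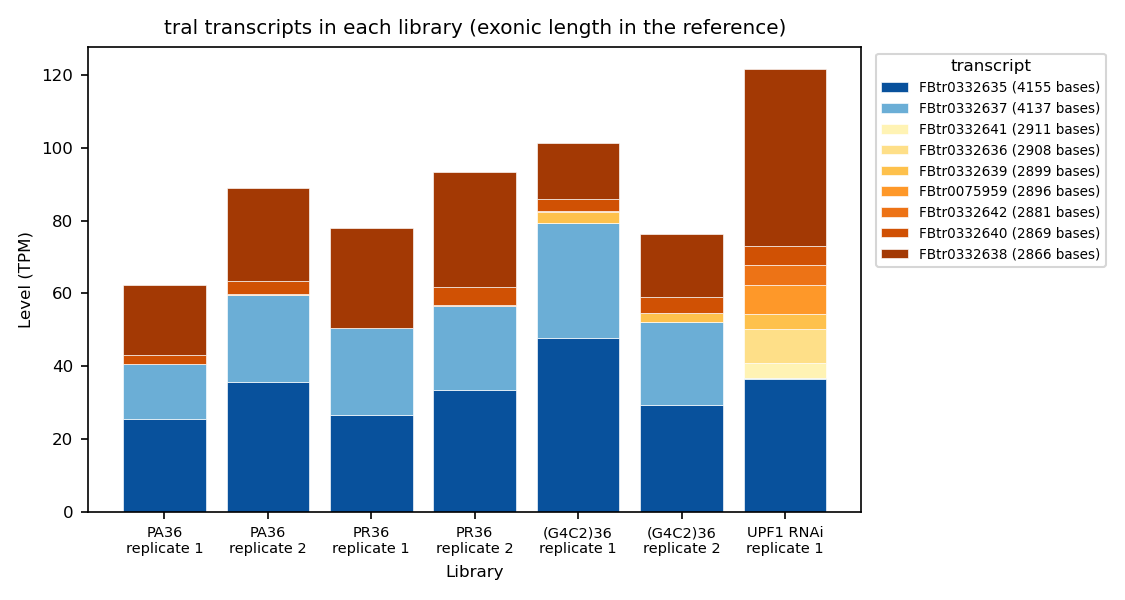
TPM of the 9 tral transcripts stacked in each of 7 libraries, the 2 transcripts with the long 3′ end in blue and the 7 short ones in yellow to brown. In UPF1 RNAi the blue part is 30.2% of the bar and FBtr0332637 (light blue) is at 0.322 TPM, whereas the blue part is 60.6% to 78.3% in the other libraries.

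Alternative 3′ ends were common in the set. Besides tral, 7 genes have 1 listed transcript that reaches beyond the others, by 121 bases in pcm up to 2266 bases in Dcp2. The long transcript of Dcp2 (FBtr0304975) held 38.5% and 40.5% of the gene in PA36, 45.6% and 38.4% in PR36, 43.4% and 47.0% in (G4C2)36 and 43.2% in UPF1 RNAi. That of twin (FBtr0084568, 698 bases) held 28.8% to 44.9%, and its highest share was in PA36 replicate 1. For pAbp, FBtr0086740, which ends 1573 bases farther and encodes the same protein, held 14.9% and 16.2% in PA36, 18.3% and 17.5% in PR36, 12.0% and 15.1% in (G4C2)36 and 11.7% in UPF1 RNAi. In PR36 it stood at 133 and 102 TPM and in (G4C2)36 at 67.8 and 79.9 TPM, a log2 difference of 0.65 (SE 0.25, limma adjusted p = 0.88). Groups did not overlap there, but the test was not passed. Among gene sums, 13.1% of all genes lay higher in PR36 than in (G4C2)36 without overlap. The share over transcripts was not computed.

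The scarcer long transcripts varied widely within a genotype. The long transcript of pcm (FBtr0302082) held 30.9% of the gene in PA36 replicate 2, 28.9% in (G4C2)36 replicate 1 and 19.4% in PR36 replicate 2. It held under 1% in the other 4 libraries, 1 of each genotype. The 3 highest pcm sums were in the 3 libraries that list this transcript above 1 TPM, while FBtr0074784 stayed at 6.78 to 9.82 TPM in all 7. Only 124 of the 5384 exonic bases of FBtr0302082 are its own. How well reads could be assigned between both pcm transcripts was not tested. The long transcript of Dcp1 (FBtr0072223) was listed at 0 in both PA36 libraries and in (G4C2)36 replicate 2, and at 1.69 to 2.34 TPM in the 4 others. An exact 0 can be a failed estimate, so no fold is given. The long transcript of Patr-1 (FBtr0339155) was at 0.0106 TPM in (G4C2)36 replicate 1 and at 1.65 to 2.83 TPM elsewhere, and that of Ge-1 held 0.571% to 4.47%. Transcripts of me31B and Edc3 could not be compared, since 1 is listed for each.

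**Figure D5:**
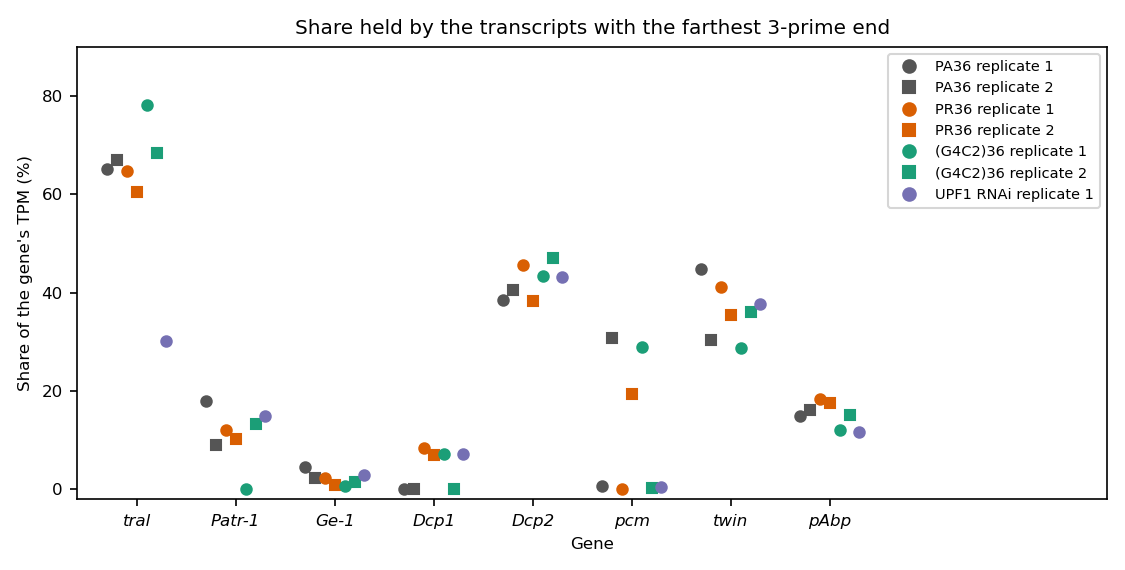
Share of the gene's TPM held by the transcript or transcripts with the farthest 3′ end (percent), for the 8 genes with several listed transcripts, by library. UPF1 RNAi lies apart for tral at 30.2%, and for pcm the libraries fall near 0% or between 19.4% and 30.9% with 1 library of each kind in PA36, PR36 and (G4C2)36.

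Other genes of mRNA decay were read from 6 lists. Of 54 genes tested, 0 were called higher and 0 lower in PR36, (G4C2)36 and UPF1 RNAi against PA36 (limma, all genes). Over all genes tested, 0.194%, 0.388% and 0.625% were called. An unadjusted p under 0.05 was found for 1, 1 and 3 of the 54, beside 315, 627 and 594 of all 9287 genes. The LSm ring that binds trimmed 3′ ends had 3 tested genes with medians of 0.13, 0.09 and 0.28 on the log2 scale. Its subunit gene LSm-4 was highest in each, at 0.42, 0.27 and 0.31, and the lowest were LSm7 in PR36 (-0.03) and (G4C2)36 (-0.12) and LSm1 in UPF1 RNAi (-0.34), with limma adjusted p of 0.92 or more. The 11 deadenylase genes had medians of 0.16, 0.08 and 0.05, with PAN3, a subunit of the PAN2 deadenylase, lowest in UPF1 RNAi at -0.55 (limma adjusted p = 0.83). In PR36 the lowest was Tob, an adaptor of CCR4-NOT, at -0.80 (adjusted p = 0.996), with 34.3 and 4.99 TPM in the PR36 pair. The highest deadenylase gene was Not3 in PR36 (0.39) and (G4C2)36 (0.32), and Pop2 in UPF1 RNAi (0.59), with limma adjusted p = 0.996, 0.87 and 0.96. Not11, another CCR4-NOT subunit gene, was lowest in (G4C2)36 at -0.21 (adjusted p = 0.91). For the 5 other cap and 5′ enzymes the medians were 0.18, 0.00 and 0.20. The nuclear exonuclease Rat1 was the highest of them in PR36 at 0.25 (limma adjusted p = 0.996) and the lowest in (G4C2)36 at -0.02 (adjusted p = 0.99). The cap-binding gene Cbp20 was highest in (G4C2)36 at 0.42 (adjusted p = 0.84), and its partner Cbp80 lowest in PR36 at -0.0037 (limma adjusted p = 1.00). In UPF1 RNAi the range was from Rat1 at 0.0099 (adjusted p = 1.00) to Rai1, the partner of Rat1, at 0.48 (limma adjusted p = 0.96).

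The 13 tested repressors and P-body partners had medians of 0.18, 0.17 and 0.18. They included gw, the lowest gene of any list in (G4C2)36 and UPF1 RNAi. gw, which encodes the GW182 effector of microRNA silencing, stood at 79.6 and 108 TPM in the PA36 pair, 109 and 27.6 TPM in the PR36 pair, 11.5 and 32.9 TPM in the (G4C2)36 pair and 9.26 TPM under UPF1 RNAi. Both (G4C2)36 libraries and the UPF1 RNAi library were below both PA36 libraries. Neither log2 difference passed, at -2.19 (SE 0.68, limma adjusted p = 0.52) and -3.19 (SE 0.83, adjusted p = 0.34). With gw in UPF1 RNAi the test was passed when either PR36 library was left out (adjusted p = 0.029 without replicate 1, 0.028 without replicate 2), where 0.85% and 0.819% of all genes were called, against 0.625% with all libraries. Without PA36 replicate 1 and PR36 replicate 1, the libraries high in heat shock genes, gw passed with (G4C2)36 (-2.41, limma adjusted p = 0.00019) as with UPF1 RNAi (-3.41, adjusted p = 1.2e-06), and Tob passed in PR36 (-2.90, adjusted p = 0.00014). PA36, PR36 and UPF1 RNAi then held 1 library each, so that the spread behind these p-values came from the (G4C2)36 pair alone. Calls over all genes also increased, to 2.05% for PR36, 3.03% for (G4C2)36 and 2.56% for UPF1 RNAi, each against PA36, from 0.194%, 0.388% and 0.625%. The translational repressor pum was highest in UPF1 RNAi, at 62.7 TPM against 34.96 and 40.9 TPM in the PA36 pair (0.72, SE 0.25, adjusted p = 0.60), and larp was highest in PR36 (0.39) and (G4C2)36 (0.35), with adjusted p = 0.996 and 0.84.

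The 7 poly(A)-binding and release partners had medians of 0.28, 0.11 and 0.26, with the RNA-binding protein gene Unr highest in PR36 (0.58, SE 0.24) and UPF1 RNAi (0.62, SE 0.29), at limma adjusted p = 0.996 and 0.83. In (G4C2)36 the highest was the translation initiation factor gene eIF4G1 (0.42, adjusted p = 0.84). The release factor gene eRF1 was lowest in PR36 (-0.20) and (G4C2)36 (0.03), and eRF3 in UPF1 RNAi (-0.22), at limma adjusted p = 0.996, 0.99 and 0.96. The exosome and SKI list, which degrades messages from the other end, had 15 tested genes. Its medians were 0.13 for PR36, -0.02 for (G4C2)36 and -0.15 for UPF1 RNAi, beside 0.13, 0.13 and 0.10 over all genes, and 12, 5 and 5 of 15 lay above 0. The core subunit gene Rrp46 was its lowest member in all 3 comparisons, at -0.36, -0.41 and -0.96 (limma adjusted p = 0.996, 0.87 and 0.72). The highest were the exosome cap gene Csl4 in PR36 (0.30) and HBS1 in (G4C2)36 (0.19) and UPF1 RNAi (0.24), at limma adjusted p = 0.996, 0.94 and 0.96. Rrp46 was listed at 8.35 and 7.58 TPM in the PA36 pair and at 3.60 TPM under UPF1 RNAi.

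The genes whose log2(TPM + 1) ran most like me31B over the 7 libraries were CG33116, ecd and D1, with Pearson r of 0.99 each. Those most like pcm were eIF2beta, Lint-1 and Tango4, with r of 0.98 each. These values are the highest of 9287 genes over 7 points that share library and scaling, and are given as a description.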

How the data were processed

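Per the labels' protocols, Trizol was used to extract RNA from heads of female flies raised at 24 °C and 60% humidity. The submitters' processing notes name bcl2fastq, HISAT2 2.1, HISAT and build BDGP6. A table of TPM for 26309 transcripts was deposited by the authors, of which 1 unnamed value column was left aside. Which program and annotation gave the TPM, and whether strand was used, is not given in the sources used here. Coordinates come from the BDGP6 annotation of Ensembl release 115, in which 99.4% of transcripts were found.

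Gene values are sums of listed transcripts. The reference has 1 transcript more than listed for me31B, Dcp2 and pAbp and 2 more for twin. Genes or transcripts with a mean of at least 1 TPM were fitted as log2(TPM + 1) with limma 3.58.1 in R 4.3.3, 1 coefficient per genotype and a variance trend (3 residual degrees of freedom), two-sided, with Benjamini-Hochberg adjustment over all genes or transcripts and a threshold of 0.05. Fold changes of low genes are understated on that scale. The model was also run on simulated data, whose outcome is not given here. That simulation used independent noise of equal spread in every library. It therefore did not cover shifts of a whole library or a UPF1 RNAi library that varies unlike the others. All 10 genes are named. Of their transcripts averaging at least 1 TPM, some are named and the others are only counted. Of each related list, any called gene is named, or else the highest and lowest. Of 65 list symbols, 56 genes were matched. The 10 genes and the lists were chosen with earlier results of these data known. Alternatives covered the pseudocount (0.1), filter, scaling, limma options, samples fitted, replicate block and each library left out. No sequences are printed. Tables and figures used Python 3.11.15, pandas 2.3.3, numpy 2.4.6 and matplotlib 3.10.9.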

Additional observations from a re-analysis of the deposited data

Results flagged for a closer look

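The transcript FBtr0332637 of tral was flagged because it differed between genotypes other than the control. It was higher in PR36 than in UPF1 RNAi by 4.21 on the log2 scale (SE 0.38, limma adjusted p = 0.025) and higher in (G4C2)36 than in UPF1 RNAi by 4.40 (SE 0.38, adjusted p = 0.020), in 2 of 2 libraries each against 1. Both calls were lost with only the groups compared, with a replicate block and when single libraries were left out, except the second without PA36 replicate 2 (adjusted p = 0.047). Over all transcripts, fewer were called in these settings too. No group holds enough libraries to test for a single library far from the others.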

How the results depend on the processing

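None of the 10 genes was called in any comparison under the 16 alternatives, with a smallest adjusted p of 0.31 (limma). The depth is unknown, and 2 libraries per group, with 1 for UPF1 RNAi, leave intervals of 0.59 to 0.73 (median half-width, log2) around each difference. The added alternative without PA36 replicate 1 and PR36 replicate 1, both high in heat shock genes, was chosen after seeing the data. No UPF1 RNAi comparison could be made without its single library. The cause of the changes below was not tested.

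The call of 1 tral transcript in UPF1 RNAi against PA36, PR36 and (G4C2)36 became 6, 6 and 5 called transcripts of the 10 genes with no filter on low values, 4, 4 and 3 with no trend, and 0, 0 and 0 with only the groups compared. Over all transcripts the called share was larger too, going from 0.639%, 0.734% and 0.772% to 1.53%, 1.59% and 1.68% with no filter and 0.962%, 0.975% and 1.05% with no trend. With only the groups compared it fell to 0%, 0% and 0%, so no transcript could stay called there. With 1 library or both of the above left out, the count was 0 throughout against PA36 and PR36, and 0 to 1 against (G4C2)36, the 1 being without PA36 replicate 2. Fewer of all transcripts were called in those fits too. In the related lists, 0 calls became 1 in each of PR36, (G4C2)36 and UPF1 RNAi against PA36 without both replicates named above, and 1 in UPF1 RNAi without either PR36 library, so that these counts ranged from 0 to 1.

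Over the 9287 genes tested, deviations from the group means showed little pairing by replicate number. They correlated at 0.10 between PA36 and PR36, -0.07 between PA36 and (G4C2)36 and -0.08 between PR36 and (G4C2)36. The 10 heat shock genes did go together, at a summed 5247 and 6722 TPM in replicate 1 of PA36 and PR36. In replicate 2 of these genotypes they summed to 86.6 and 103 TPM. A correlation over all genes does not show such a pairing of few genes. With a replicate block, 0 of the 10 genes and 0, 0 and 0 of their transcripts were called in the UPF1 RNAi comparisons. Of all transcripts, 0.0317%, 0.0253% and 0% were called with that block against PA36, PR36 and (G4C2)36. FBtr0332637 then stood at -3.91 against PA36 (limma adjusted p = 0.15).

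Of the log2 differences of single genes, whose 95% intervals in the reported fit include 0, some changed sign. Median-of-ratios rescaling gave -0.0014 for pcm and -0.010 for pAbp in PR36, -0.044 for Patr-1 and -0.038 for twin in (G4C2)36, and -0.0081 for Edc3, -0.048 for twin and -0.062 for pAbp in UPF1 RNAi. Quantile normalization gave -0.0044 for pcm in PR36, -0.034 for me31B, -0.044 for Patr-1 and -0.075 for twin in (G4C2)36, and -0.040 for Edc3, -0.014 for Dcp1 and -0.074 for twin in UPF1 RNAi. Leaving out libraries, the range in PR36 was -0.061 to 0.45 for tral, -0.21 to 0.51 for Patr-1, -0.33 to 0.13 for Edc3, -0.27 to 0.50 for pcm and -0.23 to 0.31 for pAbp. In (G4C2)36 it was -0.093 to 0.35 for me31B, -0.017 to 0.49 for tral, -0.23 to 0.38 for Patr-1, -0.14 to 0.55 for Dcp1, -0.45 to 0.40 for pcm, -0.10 to 0.28 for twin and -0.32 to 0.059 for pAbp. In UPF1 RNAi it was -0.048 to 0.21 for Edc3, -0.13 to 0.33 for Dcp1, -0.15 to 0.24 for twin and -0.15 to 0.22 for pAbp. Dcp2 and Ge-1 changed sign in none of these comparisons with PA36.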
